A study of Mus musculus with 6 samples.

Results

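The histone genes described here are those whose symbol begins Hist1h, Hist2h, Hist3h or Hist4 or, in the newer nomenclature, H1f, H2ac, H2bc, H3c or H4c followed by a number. The family was chosen with earlier results of these data known. A probe set was taken when the array annotation paired it with exactly 1 such symbol, whatever its measured values. This gave 25 genes with 1 probe set each, of 16797 genes read by 18197 probe sets with 1 symbol, among 22035 probe sets in all. By class, 7 were linker histones (H1), 2 were H2A, 8 were H2B, 2 were H3 and 6 were H4. The symbols also take in genes that are not part of the S phase supply of ordinary cells: H1f6, H1f7, H1f8, H2ac1 and H2bc1 are known as germ cell histones, and H1f10 as a replacement linker histone made outside S phase. The other 19 were not set apart in this way, and whether each of them belongs to the S phase supply was not checked.

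RNA came from NIH3T3 cells, an immortalized line of mouse embryo fibroblasts called Normal cells in the study. All cells were plated in 25 mM glucose, moved after 16 h to medium with 1 mM glucose and collected 72 h later. The 3 arrays of N are of cells without forskolin (FSK), and the 3 arrays of NF are of cells given 10 μM FSK at 24 h and at 48 h of growth in low glucose. FSK activates adenylate cyclase and raises cAMP. No transgene was involved, low glucose was common to both groups, and all samples are of 1 cell line, labelled as biological replicates. Values are RMA expression values on the log2 scale, so a difference of 1 is a factor of 2.

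Histones are the proteins around which DNA is wound. Pairs of H2A, H2B, H3 and H4 form the nucleosome core and H1 sits on the linker between cores. Cells that copy their DNA need new histones at the same time, so the replication-dependent genes are transcribed mainly in S phase, under the coactivator Npat, which is phosphorylated by cyclin E with Cdk2. Their mRNAs carry no poly(A) tail and end instead in a stem-loop bound by Slbp, which serves processing, translation and the decay of the mRNA when DNA synthesis stops. The labels name the Affymetrix One-Cycle kit, which in its standard form primes cDNA from poly(A). The probe sets, however, are those of a whole-transcript gene array, which is usually run with randomly primed cDNA that takes in RNA without poly(A) as well, and the sources used here do not settle which priming was used. How far RNA without a poly(A) tail was labelled was not tested, and the values describe the histone RNA that this labelling picked up.

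The genes lie mostly in clusters. Of the 22 members with an entry in the RefSeq promoter table (GRCm38.p6), 17 were on chromosome 13, 2 each on chromosomes 3 and 6, and 1 on chromosome 15. The 250 bases upstream of the annotated start are printed for 4 members. H1f5 had the largest positive log2 change, and H2bc8 the lowest p of the H2B genes. In the H4 genes H4c3 and H4c4, N and NF did not overlap. H4c14, the member with the largest negative log2 change, had no entry in the promoter table. The 4 printed stretches are at chr13:21780626-21780875 (minus strand) for H1f5, chr13:23571150-23571399 (plus strand) for H2bc8, chr13:23698459-23698708 (minus strand) for H4c3 and chr13:23581318-23581567 (plus strand) for H4c4. Each is written 5′ to 3′ along the gene's strand, with the searched motifs in capitals: the octamer ATTTGCAT known from H2B promoters, the CCAAT box and the TATA box TATAAA, each on either strand. No motif contains another.
H1f5: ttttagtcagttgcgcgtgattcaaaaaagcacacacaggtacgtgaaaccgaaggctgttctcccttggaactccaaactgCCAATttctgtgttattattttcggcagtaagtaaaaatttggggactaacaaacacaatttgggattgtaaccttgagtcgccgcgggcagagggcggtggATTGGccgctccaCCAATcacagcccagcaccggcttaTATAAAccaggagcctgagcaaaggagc
H2bc8: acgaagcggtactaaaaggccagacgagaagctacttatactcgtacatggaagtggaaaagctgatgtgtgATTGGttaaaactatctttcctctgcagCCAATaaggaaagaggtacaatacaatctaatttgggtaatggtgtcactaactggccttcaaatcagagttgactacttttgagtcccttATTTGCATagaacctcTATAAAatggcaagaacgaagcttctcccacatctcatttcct
H4c3: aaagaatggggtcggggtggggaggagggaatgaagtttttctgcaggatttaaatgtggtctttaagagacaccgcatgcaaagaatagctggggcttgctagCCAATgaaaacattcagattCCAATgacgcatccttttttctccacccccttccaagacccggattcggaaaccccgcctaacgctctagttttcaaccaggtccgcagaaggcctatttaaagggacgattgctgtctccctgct
H4c4: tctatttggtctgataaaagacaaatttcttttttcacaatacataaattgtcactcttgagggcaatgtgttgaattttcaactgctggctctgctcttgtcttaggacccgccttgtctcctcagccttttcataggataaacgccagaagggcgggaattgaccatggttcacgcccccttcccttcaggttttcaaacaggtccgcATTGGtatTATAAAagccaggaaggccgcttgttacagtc

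The promoters differed by class in these letters. H2bc8 held the octamer at -59, a TATA box at -43 and CCAAT boxes at -178 and -150, counted from the annotated start to the first base of the motif. H1f5 held CCAAT boxes at -168, -66 and -53 and a TATA box at -28, without the octamer. H4c3 held CCAAT boxes at -146 and -126, and H4c4 held 1 at -40 with a TATA box at -32. The octamer was in 5 of 6 H2B promoters, in 1 of 2 H2A promoters and in 0 of 7 H1, 0 of 2 H3 and 0 of 5 H4 promoters, while 1.6% of all 32851 promoters of the same length held it. The H2A promoter with the octamer was that of H2ac1, whose annotated start lies 281 bases from that of H2bc1 on the other strand, so both windows hold the same motif. A CCAAT box was in 16 of the 22 promoters (72.73%, against 33.85% of all promoters), and TATAAA in 10 of 22 (45.45%, against 12.37%). The windows of H2ac1 and H2bc1 share CCAAT and TATAAA matches as well, so these counts are not of separate stretches throughout. TATAAA was counted at any position, from -250 in H4c6 to -10 in H2bc3. These matches describe letters, and the arrays hold no measurement of binding.

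The labelled cell type was checked first. The 9 fibroblast marker probe sets had mean levels between 6.20 and 12.55, all above a bound of 3.903, the median of the mean log2 value over all probe sets tested, below which a probe set is called dim here. The 5 epithelial and the 6 blood and endothelial markers were all below it, at 2.43 to 3.79 and 2.63 to 3.27. Array medians lay between 3.8447 and 3.9252. N replicate 1 stood apart, with an SD across probe sets of 2.4195 against 2.5783 to 2.6158 on the other arrays.

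No histone probe set was called in the comparison of NF with N. By limma and Benjamini-Hochberg adjustment over all 18197 probe sets, 0 of 25 members were called higher and 0 lower at an adjusted p under 0.05, the lowest adjusted p being 0.156. Over all probe sets tested, 1.76% were called higher and 0.692% lower, so few calls would fall among 25 probe sets at that rate. At an unadjusted p under 0.05, 1 member was higher (H1f5) and 2 were lower (H2bc8 and H4c14), beside 8.02% and 5.36% of all probe sets. Student's t-test for each probe set put 1 member higher and 3 lower without adjustment, and the share over all probe sets was not counted for it. The NF arrays lay entirely above the N arrays for 1 member, where 10.2% of all probe sets did so, and entirely below for 5, where 9.46% did so.

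In samples of many cells, a change in the share of cells in S phase and a change of histone RNA per cell cannot be told apart. Log2 changes, NF minus N, ran from -0.62 to 0.79 with a median of -0.11, beside a median of -0.02 over all probe sets tested. The NF mean was lower for 17 members and higher for 8, and 54.7% of all probe sets had a lower NF mean. Without the germ cell genes and H1f10, 14 of 19 members had a lower NF mean and the median was -0.18. For 20 of the 25 members the 95% interval of the log2 change lay within 1 of 0, that is, within a factor of 2 in either direction. The exceptions were H1f5, H2bc9, H4c3, H4c6 and H4c14. Over all 18197 probe sets tested, the interval of 15962 lay within 1 of 0. Of the members, 16 were above the bound for dim probe sets and 9 below it, where a change of the RNA may show only in part. The interval lay within 1 of 0 for all 9 dim members and for 11 of the 16 above the bound.

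**Figure D1:**
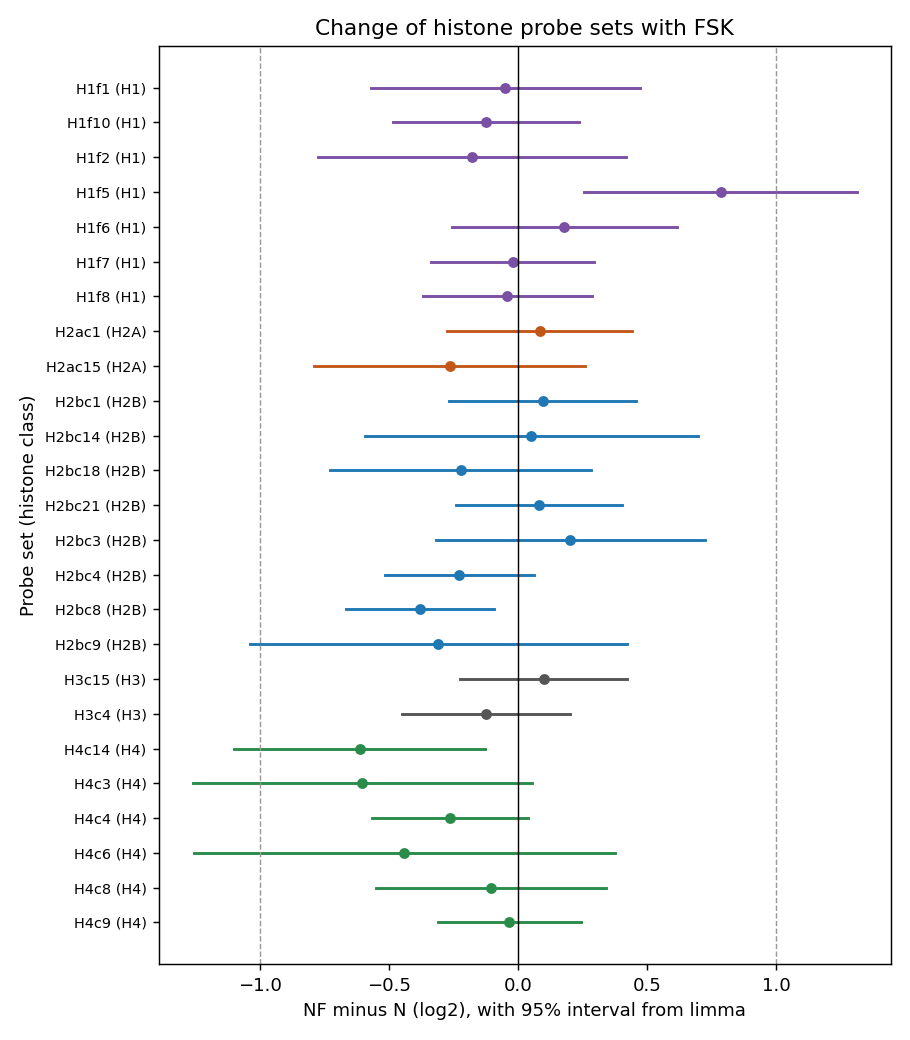
Log2 change (NF minus N, horizontal axis) of the 25 histone probe sets, by class (purple H1, orange H2A, blue H2B, grey H3, green H4). Points are differences of means of 3 arrays per group, bars are 95% intervals from limma, and dashed lines mark a factor of 2; H1f5 lies on the right at 0.79, and all 6 H4 points lie left of 0.

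H1f5, formerly Hist1h1b, is an S phase linker histone gene. Its log2 level was 7.20, 7.82 and 7.31 on the N arrays and 7.92, 8.62 and 8.15 on the NF arrays. Every NF array was above every N array, with a narrow gap between N replicate 2 and NF replicate 1. The log2 change was 0.79 (SE 0.23, 95% interval 0.26 to 1.31), and its adjusted p of 0.156 did not pass. Leaving out N replicate 1, it was 0.67. H1f2, formerly Hist1h1c, is a linker histone with both stem-loop and polyadenylated transcripts known. It measured 7.72, 8.50 and 8.68 in N and 8.13, 7.86 and 8.38 in NF, with overlapping groups and a log2 change of -0.18, or -0.47 without N replicate 1. H1f5 and H1f2 thus differed in the sign of their log2 change, and the difference between them was not tested.

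The remaining H1 probe sets showed little difference. H1f1 had a log2 change of -0.05 and H1f10 of -0.13. The germ cell genes H1f6, H1f7 and H1f8 were dim, with log2 changes of 0.18, -0.02 and -0.04. For H1f6, the testis linker histone, the values were 2.99, 2.82 and 2.86 in N and 2.86, 2.86 and 3.49 in NF, so NF replicate 3 alone carried the higher mean. The class median was -0.04, and its sign was not stable: it was 0.05 without N replicate 1, with 4 of 7 members higher, and 0.01 after a further quantile normalization.

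H2A was represented by 1 gene above the bound. H2ac15, formerly Hist1h2ak, measured 10.21, 10.03 and 10.08 in N and 9.78, 10.34 and 9.40 in NF. The N arrays were close together, while NF ranged from below to above them, and the log2 change was -0.27 with an adjusted p of 0.697. Leaving out NF replicate 2, it was -0.52. The testis gene H2ac1 was dim, at 3.84, 3.90 and 3.42 in N and 3.79, 3.81 and 3.81 in NF, with a log2 change of 0.08.

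The 8 H2B genes were split, 4 with a higher and 4 with a lower NF mean, and their median log2 change was -0.09. H2bc4, formerly Hist1h2bc and a gene for which polyadenylated transcripts are known, measured 9.40, 9.22 and 9.28 in N and 9.18, 9.03 and 9.005 in NF. All NF values were below all N values, by little, with a log2 change of -0.23 and an adjusted p of 0.508. H2bc8, formerly Hist1h2bg, measured 4.03, 3.82 and 3.83 in N and 3.45, 3.51 and 3.56 in NF. Here too the groups did not overlap, with a log2 change of -0.38 (SE 0.12, adjusted p 0.211). Its mean level was below the bound for dim probe sets.

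The other H2B genes had overlapping groups. H2bc9 measured 7.66, 6.95 and 6.53 in N and 6.43, 7.25 and 6.53 in NF, and its log2 change of -0.31 was -0.01 without N replicate 1. H2bc3 measured 7.20, 7.50 and 6.80 in N and 7.16, 7.75 and 7.19 in NF, with a log2 change of 0.20. H2bc14 measured 8.16, 8.67 and 8.03 in N and 7.94, 8.94 and 8.13 in NF, with a log2 change of 0.05. In all 3 of these genes NF replicate 2 was the highest of the NF arrays. H2bc18, formerly Hist2h2bb, had a log2 change of -0.22, and -0.48 without NF replicate 2. H2bc1, the testis H2B gene that shares its start region with H2ac1, measured 4.45, 4.47 and 4.38 in N and 4.38, 4.83 and 4.37 in NF. H2bc21, formerly Hist2h2be, was dim, at 3.29, 2.96 and 2.95 in N and 3.13, 3.20 and 3.12 in NF. Their log2 changes were 0.09 and 0.08.

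Both H3 members were dim. H3c15 measured 2.99, 3.25 and 3.10 in N and 3.32, 3.28 and 3.03 in NF, a log2 change of 0.10, and H3c4 had a log2 change of -0.13. These are probe sets for single copies. Most H3 copies are read together, by probe sets with several symbols.

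**Figure D2:**
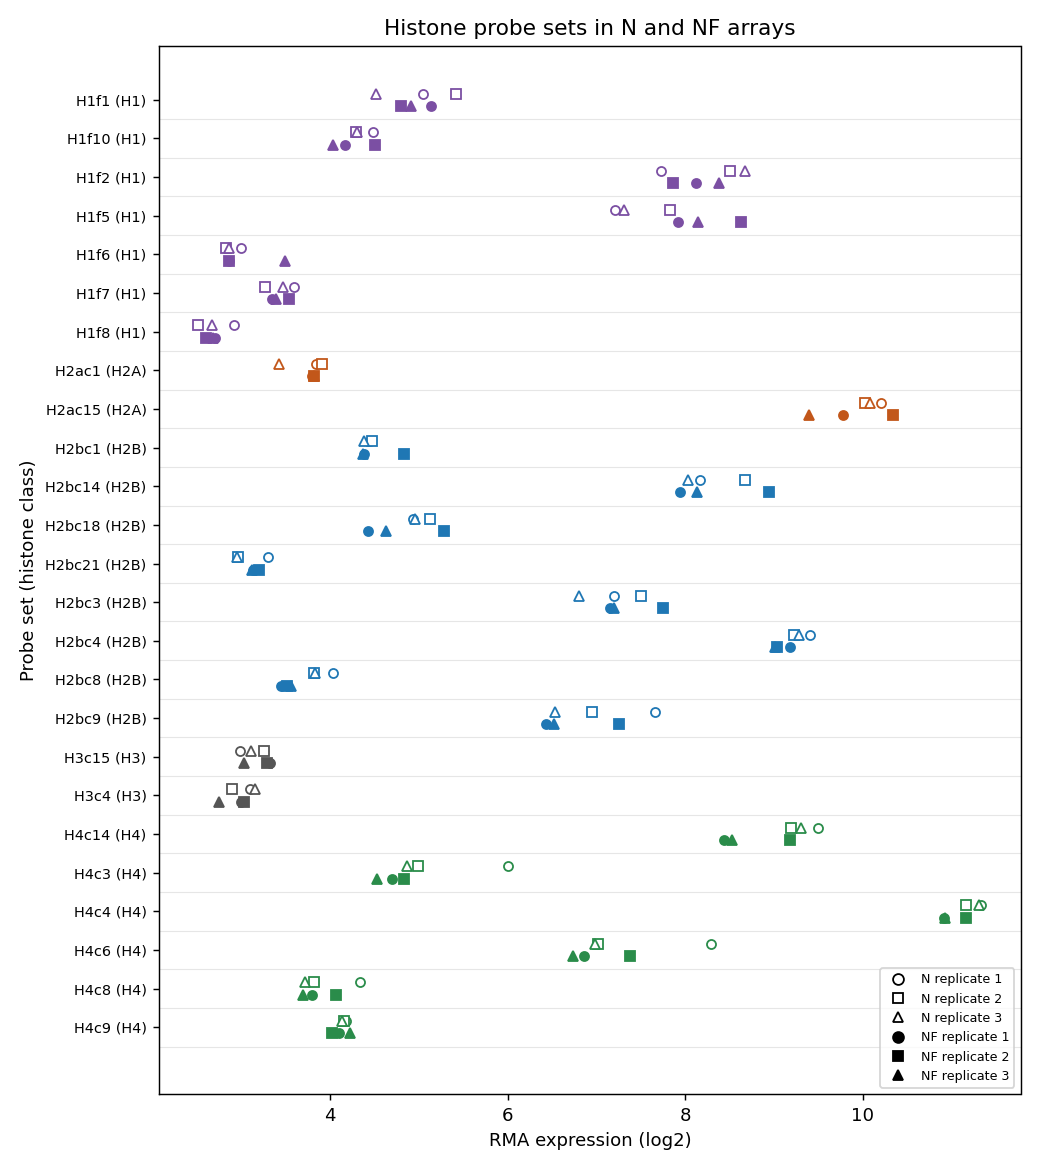
RMA expression (log2, horizontal axis) of the 25 histone probe sets on each array, coloured by class as in the plot of changes. Open symbols are N and filled symbols NF, with circles, squares and triangles for replicates 1, 2 and 3; levels should be compared within a probe set, where N and NF mostly overlap, and N replicate 1 lies to the right in H4c3 and H4c6.

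H4 was the class in which every member had a lower NF mean. The median log2 change of its 6 probe sets was -0.35. In 3 of them, H4c3, H4c4 and H4c14, NF lay entirely below N, as it did for 9.46% of all probe sets tested. None passed the adjusted test. H4c14, formerly Hist2h4, measured 9.49, 9.19 and 9.30 in N and 8.44, 9.18 and 8.52 in NF. NF replicate 2 lay just under the lowest N array, and the other two NF arrays lay well below. The log2 change was -0.62 (SE 0.21, 95% interval -1.10 to -0.13, adjusted p 0.237). Without NF replicate 2 it was -0.85, and the adjusted p of 0.0642 was then the lowest for any member in the alternatives run. Over the alternatives the adjusted p of H4c14 ranged from 0.0642 to 0.682. H4c4 measured 11.34, 11.16 and 11.31 in N and 10.92, 11.16 and 10.92 in NF. Its log2 change was -0.27 with an adjusted p of 0.447, and here N replicate 2 and NF replicate 2 were nearly level.

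In a pair of H4 genes the difference leaned on 1 array. H4c3 measured 6.01, 4.99 and 4.87 in N and 4.69, 4.83 and 4.53 in NF. H4c6 measured 8.29, 7.01 and 6.99 in N and 6.86, 7.38 and 6.73 in NF. In both genes N replicate 1 stood well above the other N arrays. Their log2 changes were -0.61 and -0.44 with all arrays, and -0.25 and -0.01 without N replicate 1. H4c8 and H4c9 had log2 changes of -0.11 and -0.03, and that of H4c8 was 0.08 without N replicate 1. Without N replicate 1 the class median was -0.13 and 5 of 6 members had a lower NF mean, and without NF replicate 2 it was -0.49, again with 5 of 6. After quantile normalization or centring of the arrays on their medians, all 6 remained lower, with class medians of -0.41 and -0.39.

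Most core histone copies are too alike for probe sets of their own. The annotation paired 25 further probe sets with several symbols, from 2 to 20, of which at least 1 was a histone symbol of the kinds named above. They are not members, and 2 pairs of them held identical values, leaving 23 distinct sets. In a limma fit that added them to the probe sets tested, none was called, none had an unadjusted p under 0.05 and the lowest adjusted p was 0.599. Their log2 changes ran from -0.23 to 0.16 with a median of 0.01, and every 95% interval lay between -0.68 and 0.76. By class, the medians were 0.05 for 10 H3 sets, 0.01 for 7 H2B sets, -0.04 for 2 H2A sets and -0.19 for 6 H4 sets. As among the single-copy probe sets, all 6 H4 sets had a lower NF mean, though many of their target genes are shared, so they are not separate observations.

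Another 3 genes carried Hist3h or Hist4 symbols before they were renamed and now fall outside the symbols used. H4f16, formerly Hist4h4, encodes the same protein as the clustered H4 genes. It measured 8.04, 7.09 and 7.20 in N and 6.82, 7.08 and 6.995 in NF. The groups did not overlap, narrowly, and the log2 change was -0.48 with an adjusted p of 0.477. N replicate 1 was again the highest array. H2aw had a log2 change of 0.11 and the dim H2bu2 of -0.17.

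The arrays of a group also differed among themselves. NF replicate 2 was the highest NF array for 16 of the 25 members and for all 25 probe sets with several histone symbols, where it was the highest for 25.0% of all probe sets tested. Taking each probe set's deviation from its mean over the 6 arrays, the H2B members averaged 0.16, 0.11 and -0.13 in N and -0.22, 0.25 and -0.16 in NF. The H4 members averaged 0.54, -0.01 and -0.01 in N and -0.26, 0.04 and -0.30 in NF. In both classes 2 NF arrays were low and NF replicate 2 was high, and in H4 N replicate 1 exceeded all others. The average of the H1 members lay between -0.08 and 0.09 on all arrays, while single members such as H1f5 moved further.

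**Figure D3:**
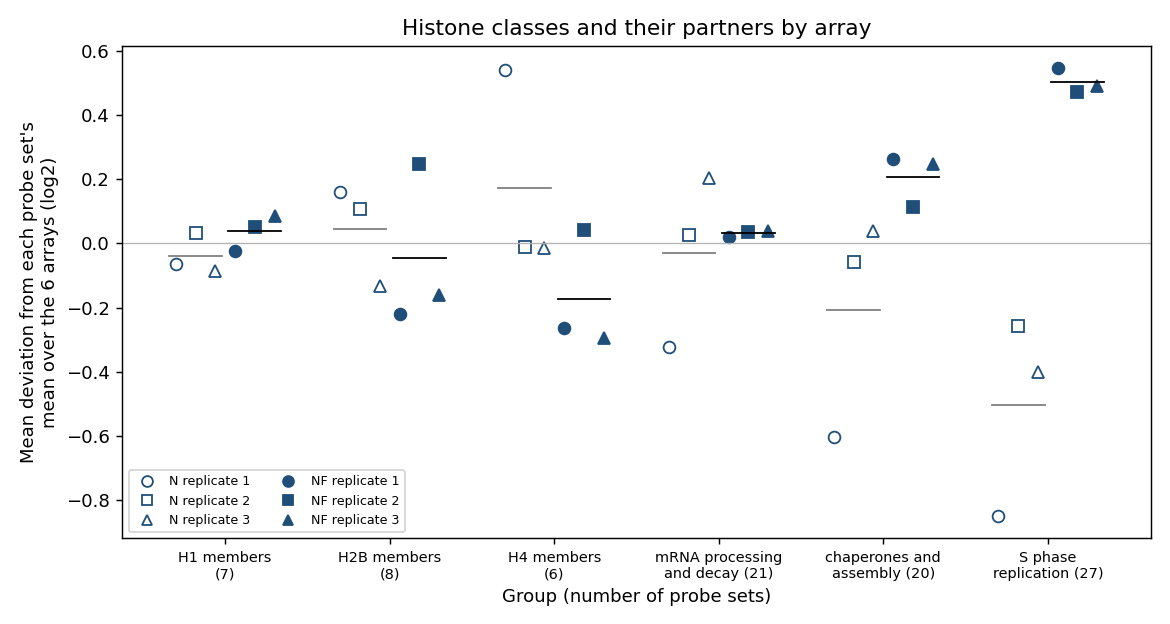
Mean deviation (log2, vertical axis) of the probe sets of a group from their own means over the 6 arrays, per array. Open symbols are N, filled symbols NF, horizontal lines group means and numbers in parentheses probe sets; the N and NF symbols overlap in the histone classes and separate in the chaperones and in the S phase factors, the latter from -0.85 to -0.26 in N and from 0.47 to 0.55 in NF.

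The factors that copy DNA in S phase gave a different reading on these arrays. Their list and the other lists below were chosen with earlier results of these data known. Of 27 probe sets for 25 replication factors, 14 were called higher in NF and 0 lower, beside 1.76% and 0.692% of all probe sets. All 27 had a higher NF mean, and their median log2 change was 0.89. This direction, NF minus N by the labels, is opposite to the one the study gives for cell cycle genes in this comparison. The study reports repressed genes of cell cycle and DNA-related pathways with FSK in Normal cells, and names proliferation arrest as the response it expected. Its statement rests on pathways enriched among genes with a fold change of at least 2, not on this list or threshold. In a gene set analysis of its gene and protein data, it also reports purine and pyrimidine metabolism as up-regulated in this comparison. Every sign given here rests on the labels of N and NF, and the source of the disagreement was not tested. Tk1, thymidine kinase, was 4.27, 4.79 and 4.67 in N and 6.27, 6.002 and 6.18 in NF in the probe set with the lowest p, a log2 change of 1.58 (adjusted p 0.00843). Mcm6, a subunit of the replicative helicase, was 5.52, 6.31 and 5.63 in N and 7.64, 7.31 and 7.65 in NF, a log2 change of 1.71 (adjusted p 0.0132). In both genes every NF array was above every N array. The helicase subunits Mcm3 and Mcm5, the ribonucleotide reductase subunit Rrm2 and the primase subunit Prim1 were also called higher, with log2 changes of 1.47, 1.37, 1.49 and 1.03. The count depended on single arrays: it was 21 without N replicate 1, 9 without N replicate 2, 3 without N replicate 3, 4 when NF replicate 2 was left out and 0 when either of NF replicates 1 and 3 was. In each of these leave-out fits with 0 calls, 24 of 27 were higher at an unadjusted limma p under 0.05. The share over all probe sets was not counted in those fits. With all arrays, the count was 2 with the replicate block and 0 by Student's t-test after adjustment.

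Histone chaperones, which carry newly made histones to chromatin, were higher in part. Of 20 probe sets, 3 were called higher and 0 lower, beside 1.76% and 0.692% of all probe sets. The median log2 change of the 20 was 0.27. Leaving out N replicate 1 gave a median of 0.10, and leaving out N replicate 3 gave 0.43. Asf1b, which hands H3 and H4 to the assembly factors, was 5.17, 6.57 and 6.02 in N and 8.004, 7.49 and 7.88 in NF, a log2 change of 1.87 (SE 0.33, adjusted p 0.032). Chaf1a, the large subunit of the assembly factor CAF-1, was 4.33, 5.09 and 4.87 in N and 6.44, 5.88 and 6.16 in NF, a log2 change of 1.40 (SE 0.23, adjusted p 0.0243). Hat1, which acetylates new H4, was 5.86, 6.33 and 6.48 in N and 7.26, 7.36 and 7.30 in NF, a log2 change of 1.09 (SE 0.17, adjusted p 0.0242). All 3 were higher on every NF array than on any N array. Nasp, which holds a reserve of H3 and H4, had a log2 change of 0.69 and an adjusted p of 0.0736. The 3 calls became 1 when N replicate 3 or NF replicate 2 was left out, and 0 when NF replicate 1 or 3 was. In each fit with 0 calls, 6 probe sets were higher at an unadjusted limma p under 0.05, and the share over all probe sets was not counted.

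Among genes for making histone mRNA, calls were few. Of 10 probe sets for the transcription of histone genes, 1 was called higher and 0 lower, 4 were higher at an unadjusted limma p under 0.05 with no overlap between groups (Ccne1, Ccne2, Cdc25a and Cdk2), and the median log2 change was 0.43, or 0.14 without N replicate 1. Ccne1, cyclin E, was 4.92, 5.54 and 5.13 in N and 6.25, 6.31 and 6.08 in NF, a log2 change of 1.02 (SE 0.18, adjusted p 0.031), a call made in 6 of 12 alternatives. It was absent when N replicate 3 or any one NF array was left out, with the replicate block (adjusted p 0.0693) and by Student's t-test (adjusted p 0.294). Npat itself had a log2 change of 0.22 (adjusted p 0.767), and -0.04 without N replicate 1. Of 21 probe sets for processing and decay of histone mRNA, 0 were called, and the median log2 change was 0.02. At an unadjusted limma p under 0.05, 2 were higher and 1 lower, beside 8.02% and 5.36% of all probe sets. Slbp was read by a pair of probe sets that disagreed. One was 6.24, 6.48 and 6.17 in N and 6.89, 6.56 and 6.82 in NF, without overlap, a log2 change of 0.46 (SE 0.15, adjusted p 0.206), and the other had a log2 change of -0.07.

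Replacement histones are made outside S phase as well, mostly from polyadenylated mRNA. The median log2 change of 9 probe sets was 0.08, and 1 was called higher, beside 1.76% of all probe sets. That one was Cenpa, the H3 variant of centromeres, at 4.66, 5.85 and 5.90 in N and 7.84, 7.42 and 7.89 in NF, a log2 change of 2.24 (SE 0.33, adjusted p 0.018). The call was absent without NF replicate 1 or NF replicate 3, with the replicate block (adjusted p 0.0563) and by Student's t-test (adjusted p 0.297). H2az2 had a log2 change of 0.82 with an adjusted p of 0.123. H1f10 is counted both here and among the 25 members.

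Set side by side, the medians of the log2 change were -0.11 for the histone members, 0.02 for mRNA processing and decay, 0.08 for replacement histones, 0.27 for the chaperones, 0.43 for histone gene transcription and 0.89 for the S phase factors, each over the same 6 arrays. Without N replicate 1 those of the members, the chaperones, the transcription list and the S phase factors were -0.01, 0.10, 0.14 and 0.71. N replicate 1, the highest N array for H4, was the lowest for the S phase factors. Its mean deviation there was -0.85, against -0.26 and -0.40 for the other N arrays. N replicate 1 was also the lowest array for the chaperones (-0.60), the transcription list (-0.595), the fibroblast markers (-0.53) and mRNA processing and decay (-0.32). The dim epithelial markers averaged 0.23 on it, and the dim blood and endothelial markers 0.14. NF replicate 2, the highest NF array for H2B and H4, was level with the others in the S phase factors, at 0.47 against 0.55 and 0.49. The difference between the lists was not tested, and what part array quality or labelling had in it was not tested.

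**Figure D4:**
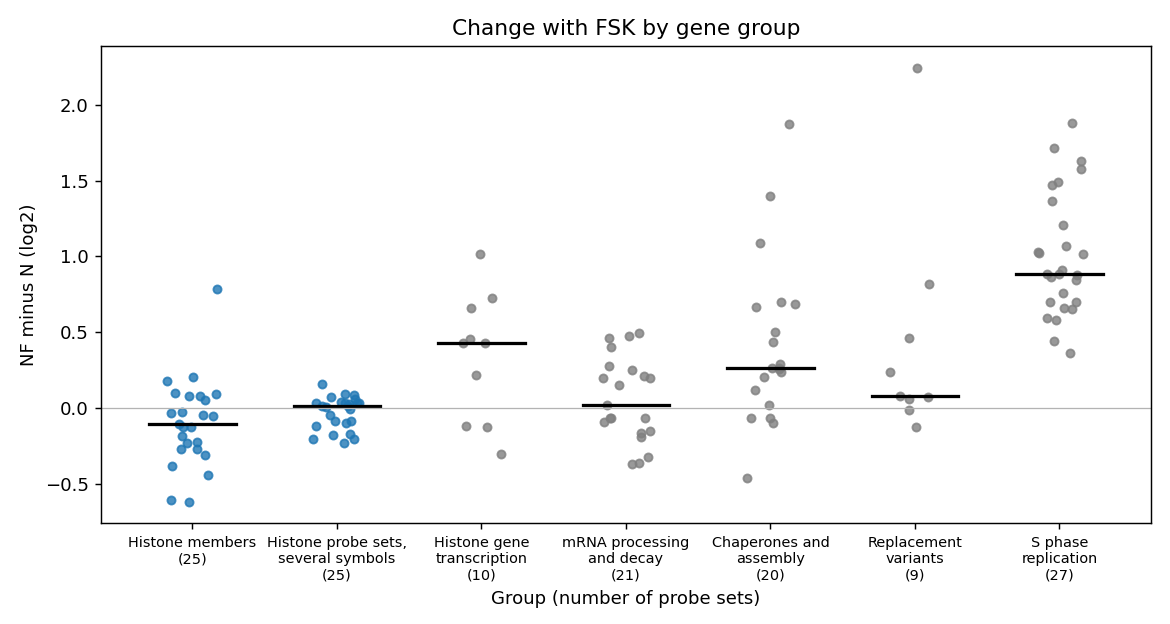
Log2 change (NF minus N, vertical axis) of each probe set in the histone members (blue), the histone probe sets with several symbols (blue) and 5 lists of related genes (grey). Horizontal bars are medians, from -0.11 for the members to 0.89 for the S phase factors, and sideways scatter has no meaning.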

How the data were processed

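Each array's column, as deposited, holds log2 expression computed by the authors with RMA, which corrects background, equalizes the distributions of arrays and summarizes probe sets. The array model's annotation gave 18197 of 22035 probe sets 1 symbol, 1260 several, and left 2578 unlisted. Which arrays were normalized together is not given in the sources used here. NF was fitted against N on the 18197 in R 4.3.3 with limma 3.58.1 (lmFit, eBayes, prior degrees of freedom 4), with p-values adjusted over the whole set after Benjamini and Hochberg and a threshold of 0.05. Intervals (95%) came from limma's moderated statistics. The procedure was tested on simulated data. The number of arrays limits the precision.

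The histone genes and the lists of related genes were chosen with earlier results of these data known. Values on each array are given for the 8 members with the largest positive and the 8 with the largest negative log2 change, the brightest of each class and, in other lists, for leading genes among up to 6 that passed with the lowest p. Npat, Slbp, Asf1b, Chaf1a and Nasp are named in any case. Casp8ap2 and Chaf1b, also on that list, had no probe set with 1 symbol. All 25 member symbols were found in a RefSeq gene table, and 22 in its promoter table.

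Alternatives tried were a replicate block, further quantile normalization, centring, removal of dim probe sets, trend and robust estimation, Student's t-test (named in the study for other assays, with limma for the arrays), genes in place of probe sets, inclusion of probe sets with several symbols and leaving out each array. Added after the data were seen were the renamed genes, probe sets with any histone symbol and leaving out dim members.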

Additional observations from a re-analysis of the deposited data

How the results depend on the processing

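The count of histone probe sets called higher and the count called lower were both 0 in all 16 alternatives in which they were counted, and the median log2 change of the members stayed between -0.20 (dim members left out) and -0.01 (without N replicate 1) in 17. The lowest adjusted p of a member was 0.0642. No paired analysis is implied by the labels. With the replicate block, 0 members were called and the median log2 change was -0.11. Deviations of same-numbered arrays correlated at -0.07, -0.08 and -0.07 across probe sets, and those of other N and NF arrays at -0.04 to 0.14. Deviations from means of 3 arrays cannot show whether cultures were handled in pairs. The block took the 14 calls among the S phase factors to 2, the 3 among the chaperones to 0 and those over all probe sets from 320 higher and 126 lower to 64 and 17. Quantile normalization gave 517 higher and 384 lower over all probe sets, centring 352 and 191, and Student's t-test after adjustment 1 and 0. Without NF replicate 1 there was 1 call in all, and without NF replicate 3 there were 2. Ccne1, Hat1, Chaf1a, Asf1b and Cenpa kept a positive log2 change in the 12 alternatives in which each was recomputed, but were called in 6, 7, 7, 6 and 8 of them, with highest adjusted p-values of 0.294, 0.289, 0.305, 0.342 and 0.297. With 3 arrays a group, and 9 of 25 members dim, changes within the printed intervals were not resolved.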
